A study of Mus musculus with 14 samples.

Results

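Pro-B and pre-B cells are the marrow stages at which a B cell assembles and tests its antigen receptor, and 10 genes of these stages were followed here by symbol, out of 23441 genes in the deposited count matrix. They were *Rag1*, *Rag2* and *Dntt*, which act in recombination of the receptor genes, *Igll1*, *Vpreb1*, *Vpreb2* and *Vpreb3*, of the surrogate light chain and its relatives, and *Cd79a*, *Cd79b* and *Blnk*, which carry the receptor signal. All 10 passed the filter on low counts. The samples were bulk RNA from bone marrow plugs flushed from the distal tibia of male mice at 24 weeks of age, labelled C57BL6/SJL, each sample pooled from 2 mice, and the study asked how the marrow answers caloric restriction (CR) when its adipocytes cannot release fatty acids. Of the 14 samples, 8 were from BMAd-*Pnpla2*+/+ mice, 4 of them fed ad libitum (AL) and 4 under CR, and 6 from BMAd-*Pnpla2*-/- mice, with 3 on each diet. CR was a 30% restriction for 6 weeks. BMAd-*Pnpla2*-/- mice lose *Pnpla2*, which encodes the lipase ATGL, in bone marrow adipocytes through a Cre that Osterix-driven FLPo turns on within the *Adipoq* locus. The FLPo and Cre lines were of mixed SJL and C57BL/6J origin, and the floxed mice C57BL/6J. The cassette lowers adiponectin. Per the study's methods, mice of both genotypes carried the FLPo and Cre alleles, and the controls differed in having no floxed *Pnpla2*. No label says that the deletion acts in B cells, and whole marrow was sequenced, so fewer B-lineage cells and less RNA per cell cannot be told apart.

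A B cell precursor first cuts and joins the segments of its heavy chain locus with the RAG1 and RAG2 recombinase, and the polymerase that *Dntt* encodes adds bases at the joins that no template specifies. The new heavy chain is then held by a surrogate light chain, made from the products of *Igll1* and a Vpreb gene, and signals through the CD79A and CD79B subunits and the adaptor BLNK. Once a true light chain is made, the recombinase, the polymerase and the surrogate light chain are no longer needed, whereas CD79A, CD79B and BLNK are kept by mature B cells.

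The near-identity of *Vpreb1* and *Vpreb2* bears on their counts, since a read that fits both is counted for neither. Their coding sequences were both 426 bases long and differed at 9 positions, an identity of 97.9%. Of the 100-base windows of the *Vpreb2* transcript, 14.7% occurred unchanged in *Vpreb1* transcripts, and of those of *Vpreb1*, 14.5% occurred in *Vpreb2*. The stretch of 150 coding bases with the most differences, coding positions 238 to 387, is given here with the 6 differing bases in capitals, from the GENCODE M21 transcripts on mm10, at chr16:16868638-16868787 on the minus strand for *Vpreb1* and chr16:17980889-17981038 on the plus strand for *Vpreb2*.
Vpreb1: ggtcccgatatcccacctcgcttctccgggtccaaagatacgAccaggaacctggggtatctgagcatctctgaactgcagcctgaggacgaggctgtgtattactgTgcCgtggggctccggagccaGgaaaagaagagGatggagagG
Vpreb2: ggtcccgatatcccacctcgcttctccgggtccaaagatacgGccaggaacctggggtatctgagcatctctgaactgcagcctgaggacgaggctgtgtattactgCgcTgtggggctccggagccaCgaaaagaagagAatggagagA
Counts of these genes are therefore uncertain as a split between the pair. Both changed in the same direction in every comparison of diets below.

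Read pairs numbered 25282327 to 27475056 per sample, and the unstranded counts of the matrix genes summed to between 18658806 and 21339006. At that depth, 1 count in a sample corresponded to between 0.0451 and 0.0551 CPM (counts per 1000000, with library sizes scaled by TMM). The adipocyte genes *Adipoq* and *Plin1* were detected in all 14 samples, at 7.61 to 227 CPM for *Adipoq*, as the tissue label states. *Pnpla2*, the deleted gene, measured under CR, was at 840 ± 241 CPM (SD, n = 4) in controls and 224 ± 45.5 CPM (SD, n = 3) with the deletion, a log2 fold change of -1.91 (padj = 0.0387, edgeR). Fed AL, it was at 219 ± 58.4 CPM (SD, n = 4) and 148 ± 21.7 CPM (SD, n = 3). A limit of the design is that the 3 BMAd-*Pnpla2*-/- CR libraries carried no strand information, with 50.1 to 50.5% of strand-assigned gene reads on the first strand against 4.17 to 4.50% in the other 11, a difference that cannot be told apart from the group. Counts without regard to strand were therefore used for all samples.

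CR lowered the recombination and surrogate light chain genes of BMAd-*Pnpla2*+/+ mice by 7.98-fold (*Vpreb3*) to 114-fold (*Rag1*) in the fit, while neither receptor subunit shared with mature B cells passed the test. By the criteria of padj under 0.05 (edgeR's quasi-likelihood test, adjusted over 17494 genes) and an absolute log2 fold change over 1, 7 of the 10 genes fell and none rose, against 1.93% of all genes tested that fell. The 7 were *Rag1*, *Rag2*, *Dntt*, *Igll1*, *Vpreb1*, *Vpreb2* and *Vpreb3*. In each of the 7, every CR sample lay below every AL sample, which held for 10.4% of all genes. The median log2 fold change was -4.45 over the 10 genes and 0.00 over all genes. In BMAd-*Pnpla2*-/- mice, 8 of 10 fell against 0.926% of all genes, the same 7 with *Blnk*, and the median was -4.26 against 0.05 over all genes. In all 10 genes every CR sample of this genotype lay below every AL sample, which held for 17.4% of all genes.

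**Figure D1:**
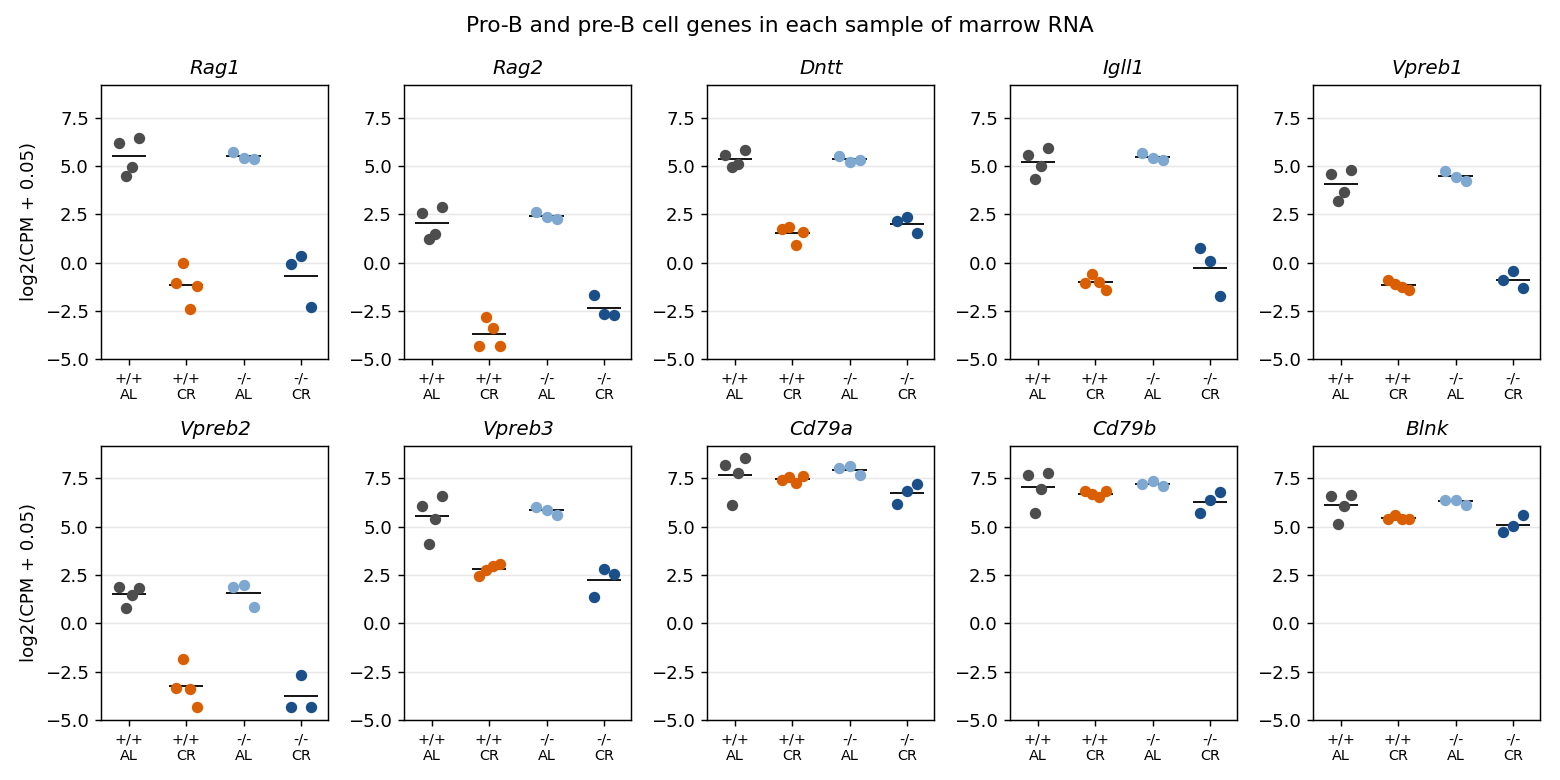
Level of each of the 10 genes in each of the 14 samples, as log2(CPM + 0.05), by genotype (+/+ or -/-) and diet (AL or CR), with 1 point per sample and a line at the mean of the plotted values. For the first 7 genes every CR sample lies below every AL sample of either genotype, whereas *Cd79a*, *Cd79b* and *Blnk* of the +/+ groups overlap.

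*Rag1* (chromosome 2, 101638282 to 101649501, minus strand, mm10) encodes the subunit of the recombinase that cuts DNA. Its level fed AL was 73.1, 22.5, 30.9 and 88.7 CPM in the 4 BMAd-*Pnpla2*+/+ samples and 53.2, 42.4 and 41.6 CPM in the 3 BMAd-*Pnpla2*-/- samples. Under CR it was 0.432, 0.925, 0.135 and 0.374 CPM in BMAd-*Pnpla2*+/+ and 0.907, 1.23 and 0.149 CPM in BMAd-*Pnpla2*-/- mice. The highest CR sample of either genotype thus lay below the lowest AL sample. The log2 fold change was -6.83 ± 0.61 (SE, padj = 8.92e-05, edgeR), or 114-fold lower, in BMAd-*Pnpla2*+/+ mice and -5.92 ± 0.67 (SE, padj = 0.0018, edgeR), or 60.4-fold lower, in BMAd-*Pnpla2*-/- mice. These CR values rest on 3 to 23 counts per sample, against 421 to 1845 fed AL.

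*Rag2*, whose product forms the recombinase together with RAG1, lies 5752 bases from *Rag1* on the opposite strand (chromosome 2, 101624718 to 101632529). It had 118, 43, 53 and 152 counts fed AL and 0, 2, 1 and 0 counts under CR in BMAd-*Pnpla2*+/+ mice. With the deletion it had 112, 94 and 87 counts fed AL and 5, 2 and 2 under CR. No CR sample of either genotype came near an AL sample. Summed over samples and set against library size, the ratio of AL to CR was 128 (95% exact interval 43.6 to 626) in BMAd-*Pnpla2*+/+ and 33.8 (17.5 to 74.6) in BMAd-*Pnpla2*-/- mice, intervals that cover counting error only. The fitted log2 fold changes were -6.75 ± 0.62 (SE, padj = 8.16e-05, edgeR) and -5.02 ± 0.59 (SE, padj = 0.0018, edgeR), and the first depends on the prior count because so few counts remain. The 95% interval from that first SE, -8.08 to -5.43, is narrower on the log2 scale than the counting interval. That SE thus understates the error. A count without strand understates *Rag2* fed AL. Of its exon bases, 208 of 3424 are shared with *B230118H07Rik* on the other strand, and reads there are counted for neither gene, so that BMAd-*Pnpla2*+/+ AL samples held 366 counts without strand and 461 on the gene's own strand.

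*Dntt*, which encodes terminal deoxynucleotidyl transferase, fell less. Fed AL it was at 47.4, 30.6, 34.6 and 57.6 CPM in BMAd-*Pnpla2*+/+ and 45.8, 36.7 and 40.2 CPM in BMAd-*Pnpla2*-/- samples. Under CR it was at 3.27, 3.47, 1.85 and 2.94 CPM and at 4.32, 5.12 and 2.83 CPM, again with no overlap. The log2 fold change was -3.88 ± 0.26 (SE, padj = 1.01e-05, edgeR) and -3.32 ± 0.29 (SE, padj = 1.59e-04, edgeR), the first 14.8-fold lower. *Dntt* was the least variable of the 10 genes among BMAd-*Pnpla2*+/+ AL samples, with a highest sample 1.88 times the lowest. It lies 34739 bases from *Blnk* on chromosome 19 (41029275 to 41059525, plus strand), and *Blnk*, on the opposite strand, fell far less.

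Among the surrogate light chain genes, *Igll1*, which encodes the lambda5 chain, was at 47.8, 20.3, 32.2 and 60.9 CPM in BMAd-*Pnpla2*+/+ AL and 50.2, 41.9 and 39.6 CPM in BMAd-*Pnpla2*-/- AL samples. Under CR it was at 0.432, 0.601, 0.451 and 0.321 CPM and at 1.65, 1.01 and 0.249 CPM. The BMAd-*Pnpla2*-/- CR samples therefore spread more widely than the BMAd-*Pnpla2*+/+ CR samples, and both sets were well below the AL samples. *Igll1* fell by 6.45 ± 0.47 on the log2 scale (SE, padj = 1.79e-05, edgeR), or 87.4-fold, in BMAd-*Pnpla2*+/+ mice and had a log2 fold change of -5.50 ± 0.50 (SE, padj = 2.76e-04, edgeR), or 45.4-fold lower, in BMAd-*Pnpla2*-/- mice.

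*Vpreb1*, 4417 bases from *Igll1* on chromosome 16 and on the same strand, encodes the other chain of the surrogate light chain. It was at 24.0, 9.14, 12.6 and 27.6 CPM in BMAd-*Pnpla2*+/+ AL and at 27.0, 21.7 and 18.8 CPM in BMAd-*Pnpla2*-/- AL samples, and at 0.480, 0.416, 0.361 and 0.321 CPM and at 0.480, 0.693 and 0.348 CPM under CR. The CR samples were close together in both genotypes. The log2 fold change was -5.51 ± 0.39 (SE, padj = 1.32e-05, edgeR) and -5.46 ± 0.44 (SE, padj = 1.47e-04, edgeR). Its CR counts were low, at 6 to 13 per sample. Of its 1199 exon bases, 108 are shared with *Top3b* on the other strand, and unstranded reads there are counted for neither gene. In the 4 BMAd-*Pnpla2*+/+ CR samples, 44 reads lay on its own strand and 61 on the other, against 33 unstranded counts. The 33 thus leave out many of these reads, and their split by strand was not counted. *Vpreb2*, 1109584 bases further along chromosome 16, had 75, 32, 51 and 73 counts fed AL and 1, 5, 1 and 0 under CR in BMAd-*Pnpla2*+/+ mice. It had 67, 74 and 32 counts fed AL and 0, 2 and 0 under CR in BMAd-*Pnpla2*-/- mice. Its AL to CR ratio by summed counts was 34.8 (95% exact interval 16.6 to 87.4) and 89.7 (24.5 to 747), and the overlap of these wide intervals leaves no order between the genotypes. Its fitted log2 fold changes were -5.01 ± 0.61 (SE, padj = 6.16e-04, edgeR) and -6.25 ± 0.81 (SE, padj = 0.00362, edgeR). The 95% interval from the second SE, -7.99 to -4.50, is narrower on the log2 scale than its counting interval, so that SE understates the error too.

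*Vpreb3* encodes a related protein that binds immunoglobulin chains early in their assembly. Fed AL it was at 68.0, 17.3, 41.5 and 97.6 CPM in BMAd-*Pnpla2*+/+ and 64.8, 59.3 and 49.1 CPM in BMAd-*Pnpla2*-/- samples, and under CR at 5.33, 6.66, 7.80 and 8.34 CPM and at 2.51, 7.09 and 5.72 CPM. Every CR sample was below every AL sample. The log2 fold change was -3.00 ± 0.44 (SE, padj = 0.00161, edgeR), or 7.98-fold lower, and -3.50 ± 0.52 (SE, padj = 0.00585, edgeR), or 11.3-fold lower. This was the smallest change among the 7 genes in BMAd-*Pnpla2*+/+ mice.

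**Figure D2:**
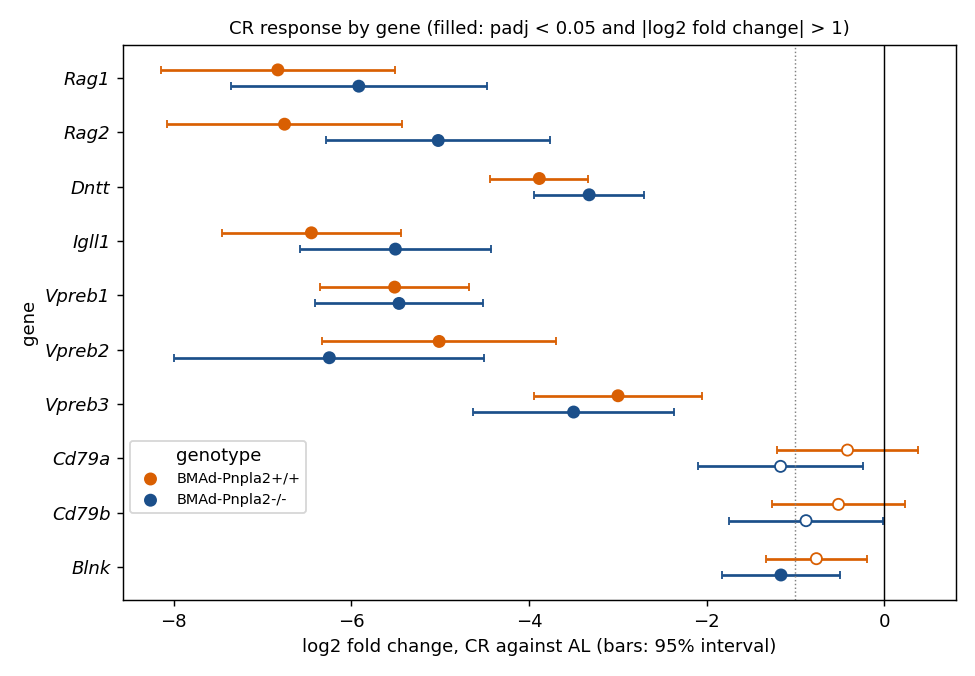
Log2 fold change of each gene with CR in BMAd-*Pnpla2*+/+ (orange) and BMAd-*Pnpla2*-/- mice (blue), with the 95% interval, where filled points passed both criteria. The 7 recombination and surrogate light chain genes lie at -3.00 or lower, and *Cd79a*, *Cd79b* and *Blnk* lie between -1.17 and -0.41. The intervals of *Rag2* in BMAd-*Pnpla2*+/+ and of *Vpreb2* in BMAd-*Pnpla2*-/- mice are narrower than counting error alone.

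The receptor subunits and adaptor behaved differently. *Cd79a*, which encodes one of the paired signalling chains of the receptor, was at 290, 70.2, 217 and 374 CPM in BMAd-*Pnpla2*+/+ AL samples and at 170, 191, 154 and 199 CPM under CR. The second AL sample was lower than every CR sample and the other 3 were higher. The log2 fold change was -0.41 (95% interval -1.20 to 0.38, padj = 0.417, edgeR), and the interval reached past the fold criterion. In BMAd-*Pnpla2*-/- mice *Cd79a* was at 260, 285 and 209 CPM fed AL and at 71.8, 114 and 150 CPM under CR, which did not overlap, with a log2 fold change of -1.17 (-2.09 to -0.24, padj = 0.0915, edgeR). *Cd79b*, the partner chain, was at 207, 51.6, 124 and 222 CPM against 115, 102, 93.1 and 114 CPM under CR in BMAd-*Pnpla2*+/+ mice, a log2 fold change of -0.51 (-1.26 to 0.23, padj = 0.280, edgeR). In BMAd-*Pnpla2*-/- mice it was at 150, 167 and 137 CPM against 51.6, 82.8 and 112 CPM, a change of -0.88 (-1.75 to -0.01, padj = 0.167, edgeR).

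*Blnk*, the adaptor that links the receptor's kinase to its downstream enzymes, was at 96.8, 35.7, 66.8 and 98.8 CPM fed AL and at 42.7, 48.9, 42.0 and 42.2 CPM under CR in BMAd-*Pnpla2*+/+ mice. As with both CD79 genes, the second AL sample fell below all CR samples. Its log2 fold change of -0.76 ± 0.26 (SE, padj = 0.0487, edgeR) did not reach the fold criterion. *Blnk* in BMAd-*Pnpla2*-/- mice was at 84.0, 83.9 and 70.5 CPM fed AL and at 25.99, 32.2 and 48.3 CPM under CR, a change of -1.16 ± 0.31 (SE, padj = 0.0310, edgeR) that met both criteria. That call was lost on leaving out any of BMAd-*Pnpla2*-/- AL replicates 1, 2 or 3 or CR replicates 1 or 2, with values of -1.17, -1.12, -1.28, -0.98 and -1.10.

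One sample, BMAd-*Pnpla2*+/+ AL replicate 2, had the lowest level of all 10 genes in its group, and replicate 4 had the highest level of 9 of the 10. Between these extremes the range was 5.63-fold for *Vpreb3*, 5.33-fold for *Cd79a* and 3.94-fold for *Rag1*. The 3 BMAd-*Pnpla2*-/- AL samples ranged 1.19-fold to 2.30-fold. Without replicate 2, *Cd79a* changed by -0.72 (padj = 0.0481, edgeR), *Cd79b* by -0.80 (padj = 0.0368, edgeR) and *Blnk* by -0.99 (padj = 0.0066, edgeR) with CR in BMAd-*Pnpla2*+/+ mice, still short of the fold criterion, and the other 7 genes still passed both criteria. In the same sample the summed level of 10 cell division genes was 5196 CPM, the highest of its group, where the others were at 3368 to 3667 CPM. Its part in the result was not tested.

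The balance between early genes and receptor subunits within a library does not depend on scaling between libraries. Fed AL, the counts of the 7 recombination and surrogate light chain genes came to 54.2, 85.3, 46.0 and 57.6 per 100 counts of *Cd79a* and *Cd79b* together in BMAd-*Pnpla2*+/+ samples. Under CR they came to 3.51, 4.23, 4.32 and 3.93. AL replicate 2, lowest in every gene, thus had the highest balance of its group. The balance in BMAd-*Pnpla2*-/- mice was 61.2, 46.7 and 56.5 fed AL and 8.21, 7.79 and 3.59 under CR. Group means fed AL and under CR were 60.8 ± 17.0 and 3.996 ± 0.366 in controls (SD, n = 4 each) and 54.8 ± 7.42 and 6.53 ± 2.56 with the deletion (SD, n = 3 each). For *Rag1* alone it went from 14.3 ± 3.90 (SD, n = 4) to 0.160 ± 0.111 (SD, n = 4), and for *Vpreb3*, the least affected, from 14.1 ± 1.75 (SD, n = 4) to 2.49 ± 0.548 (SD, n = 4). The genes had been grouped with these results known, so the balance is given as a description.

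**Figure D3:**
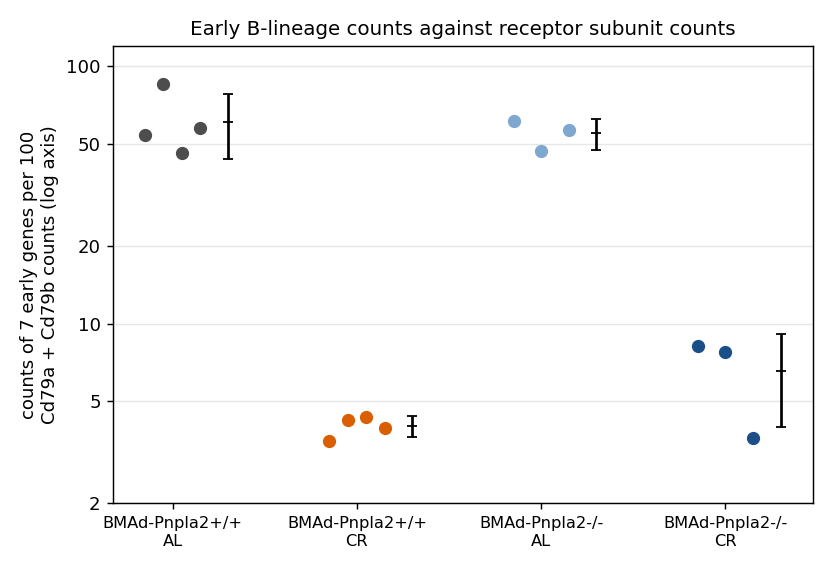
Summed counts of the 7 recombination and surrogate light chain genes per 100 summed counts of *Cd79a* and *Cd79b* in each sample (log axis), with the mean and SD of each group beside the points. AL samples lie between 46.0 and 85.3 and CR samples between 3.51 and 8.21.

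Levels between genes can be compared per length of merged exon. In BMAd-*Pnpla2*+/+ AL samples *Cd79a* was highest at 163 ± 88.4 CPM per kb (SD, n = 4), followed by *Cd79b* at 106 ± 55.2, *Vpreb3* at 65.3 ± 40.2, *Igll1* at 18.6 ± 8.21, *Dntt* at 18.6 ± 5.37, *Vpreb1* at 15.3 ± 7.38, *Blnk* at 12.4 ± 4.96, *Rag1* at 8.14 ± 4.85, *Vpreb2* at 3.81 ± 1.19 and *Rag2* at 1.32 ± 0.702 (each SD, n = 4). Neighbours in this order differed by less than the larger SD of the pair, apart from the steps from *Vpreb3* to *Igll1* and from *Vpreb2* to *Rag2*. Under CR in the same genotype, *Cd79a* was at 123 ± 13.9 and *Vpreb3* at 8.19 ± 1.55 CPM per kb, while *Igll1*, at 0.209 ± 0.0533, had gone below *Dntt*, at 1.26 ± 0.315 (each SD, n = 4).

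Fed AL, no difference between the genotypes was detected in these genes. No gene met the criteria by edgeR, none had an unadjusted p under 0.05 and DESeq2 called none, where 0% of all genes met the criteria and 3.97% had such a p. The log2 differences between BMAd-*Pnpla2*-/- and BMAd-*Pnpla2*+/+ mice ran from -0.24 for *Rag1* (95% interval -1.22 to 0.75) to 0.30 for *Vpreb1* (-0.36 to 0.95). The intervals for *Cd79a*, -0.77 to 0.93, and for *Vpreb3*, -0.89 to 0.97, also left room for nearly 2-fold differences either way.

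Under CR, again no gene met the criteria for a genotype difference by edgeR or DESeq2 and none had an unadjusted p under 0.05 by edgeR (2 had by DESeq2, which gave no adjusted p for *Vpreb2*), against 0.0114% and 23.2% of all genes. *Igll1* was 1.07 higher on the log2 scale in BMAd-*Pnpla2*-/- mice (95% interval -0.20 to 2.34, padj = 0.290, edgeR) and *Cd79a* had a difference of -0.68 (-1.54 to 0.19, padj = 0.330, edgeR). For *Cd79a* the 3 BMAd-*Pnpla2*-/- samples were all below the 4 BMAd-*Pnpla2*+/+ samples, and for *Rag2* they were all above. The share of all genes that separate between genotypes under CR was not taken, so neither separation is read as a difference. *Rag2* was 1.95 higher (-0.13 to 4.03, padj = 0.243, edgeR), a difference between 9 and 3 counts in all. The difference between the genotypes' CR responses met the criteria for none of the 10 genes by edgeR, and none had an unadjusted p under 0.05, where 0% and 10.4% of all genes did. DESeq2 gave no adjusted p for 5 of the 10, *Rag2*, *Dntt*, *Igll1*, *Vpreb1* and *Vpreb2*, and called none of the others. It was 0.91 for *Rag1* (-1.09 to 2.91), 0.56 for *Dntt* (-0.21 to 1.34), 0.05 for *Vpreb1* (-1.15 to 1.25) and -0.75 for *Cd79a* (-1.96 to 0.45). The smallest p was that of *Rag2*, at 0.116 before adjustment over all genes and 0.560 after (edgeR), for a difference of 1.73 (-0.48 to 3.95). A difference of CR responses as large as 2-fold was within the interval for each of these genes.

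Other genes of the same steps had smaller fold changes. Of 11 partners in recombination and the joining of DNA ends, 1 fell in each genotype and none rose. In BMAd-*Pnpla2*+/+ mice it was *Xrcc6*, a subunit of the Ku end-binding complex, at -1.23 ± 0.14 (SE, padj = 4.91e-04, edgeR). It was *Polm* in BMAd-*Pnpla2*-/- mice, a polymerase related to *Dntt*, at -1.06 ± 0.27 (SE, padj = 0.0255, edgeR). Each was also lower in the other genotype but short of the fold criterion. *Xrcc6* was at -0.71 (padj = 0.0176, edgeR) in BMAd-*Pnpla2*-/- and *Polm* at -0.67 (padj = 0.0460, edgeR) in BMAd-*Pnpla2*+/+ mice. The median change of the list was -0.34 and -0.37. Of 15 genes of pre-B cell receptor signalling, none met both criteria in either genotype by edgeR or DESeq2, although 11 and 10 had an unadjusted p under 0.05, as 40.3% and 29.1% of all genes tested did, and 14 and 15 had values below 0, with medians of -0.42 and -0.47. *Syk*, the kinase that the CD79 chains recruit, changed by -0.54 (padj = 0.0082, edgeR) and -0.74 (padj = 0.010, edgeR). *Syk*, *Il7r* and *Pax5* were named after their values were seen.

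Of 12 B-lineage transcription factors with *Il7r*, the receptor for a growth factor of B cell precursors, 1 fell in each genotype and none rose. It was *Spib*, an ETS-family factor of B cells and plasmacytoid dendritic cells, at -1.84 ± 0.41 (SE, padj = 0.00861, edgeR) and -2.02 ± 0.47 (SE, padj = 0.0201, edgeR). *Il7r* itself was at 0.17 (padj = 0.534, edgeR) and 0.12 (padj = 0.772, edgeR), and *Pax5*, which keeps cells in the B lineage, at -0.60 (padj = 0.276, edgeR) and -1.08 (padj = 0.141, edgeR). None of 12 genes of mature B cells and plasma cells met the criteria in either genotype by edgeR or DESeq2, with 2 and 1 at an unadjusted p under 0.05 and medians of 0.23 and -0.31. Over all genes tested, 40.3% and 29.1% had such a p, a yardstick for this list and the next. Of 8 lymphoid progenitor genes, 1 fell in BMAd-*Pnpla2*+/+ mice, *Myb*, at -1.11 ± 0.17 (SE, padj = 0.00187, edgeR), and none met the criteria in BMAd-*Pnpla2*-/- mice. An unadjusted p under 0.05 was seen for 7 of the 8, 5 lower and 2 higher, in the former and for 6, 4 lower and 2 higher, in the latter. The 2 with higher values in both were *Flt3* and *Kit*, receptors of early progenitors, named after their values were seen.

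**Figure D4:**
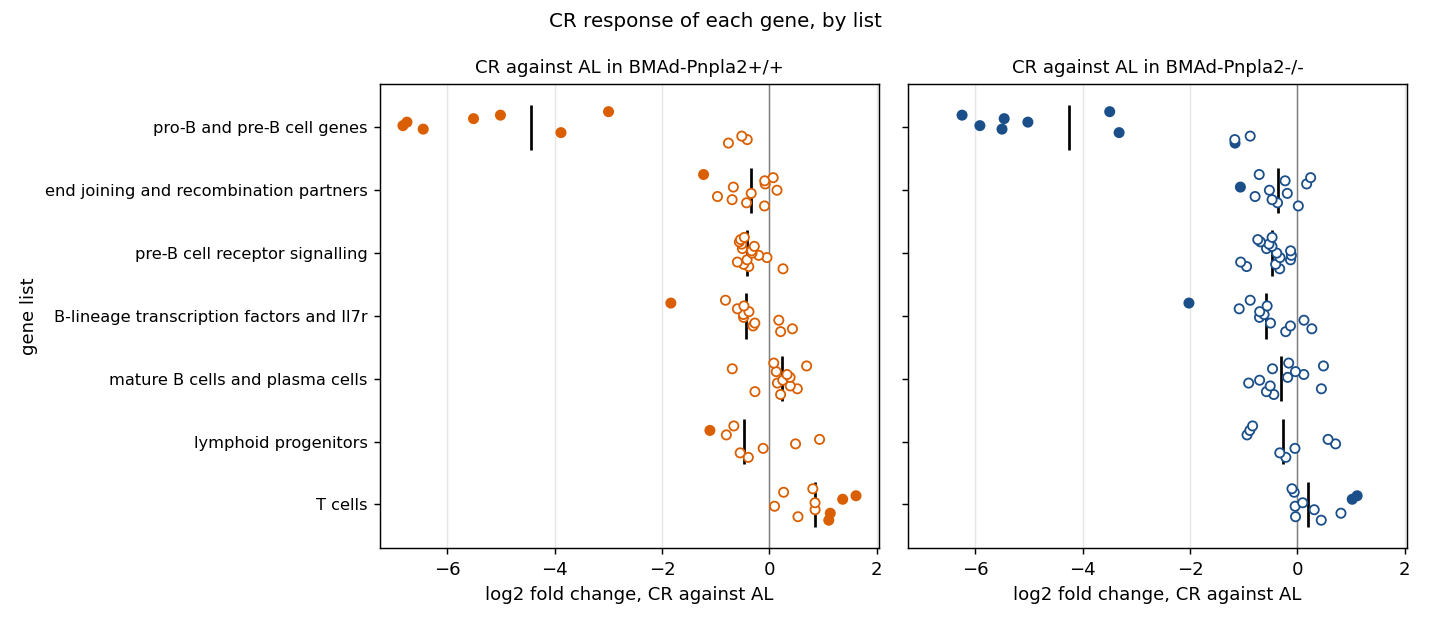
Log2 fold change with CR of each gene, by gene list, in BMAd-*Pnpla2*+/+ (left) and BMAd-*Pnpla2*-/- mice (right), where filled points passed both criteria and black lines mark list medians. The pro-B and pre-B cell genes reach -6.83 and their median is -4.45 on the left and -4.26 on the right, whereas the medians of the other 6 lists lie between -0.59 and 0.85.

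Genes of other marrow cells moved alongside. As a yardstick for the rises below, 1270 of all 17494 genes tested rose past both criteria with CR in controls, and 453 with the deletion. An unadjusted p under 0.05 was found for 40.3% of all genes in controls and for 29.1% with the deletion (edgeR). All 8 adipocyte genes, a list that holds the deleted *Pnpla2*, rose with CR in BMAd-*Pnpla2*+/+ mice, and the 7 others rose in BMAd-*Pnpla2*-/- mice. Without *Pnpla2*, their summed level went from a range of 690 to 1802 CPM to one of 1873 to 4786 CPM in the former, and from 282 to 692 CPM to 1211 to 1940.5 CPM in the latter. Of 10 T cell genes tested, 4 rose in BMAd-*Pnpla2*+/+ mice, with *Cd8b1*, a chain of the CD8 co-receptor, at 1.61 ± 0.23 (SE, padj = 0.00136, edgeR), and 2 in BMAd-*Pnpla2*-/- mice. Of 10 cell division genes, 1 fell in BMAd-*Pnpla2*+/+ mice, *Top2a* at -1.05 ± 0.29 (SE, padj = 0.0212, edgeR), and none met the criteria in BMAd-*Pnpla2*-/- mice, with 0 at an unadjusted p under 0.05. All 10 were below 0 in both genotypes, with medians of -0.82 and -0.29. In BMAd-*Pnpla2*+/+ mice all 10 had an unadjusted p under 0.05 (edgeR), against 40.3% of all genes. Summed cell division levels were 3368 to 5196 CPM fed AL and 1151 to 3468 CPM under CR in BMAd-*Pnpla2*+/+ mice. Of 10 neutrophil genes 1 fell in BMAd-*Pnpla2*+/+ mice, *S100a9* at -1.07 ± 0.25 (SE, padj = 0.0109, edgeR), and none met the criteria in BMAd-*Pnpla2*-/- mice. All 10 were below 0 in both genotypes, with medians of -0.83 and -0.44, and 8 and 4 had an unadjusted p under 0.05 (edgeR). Of 8 macrophage genes 1 rose in each genotype, *Cd163* at 1.38 ± 0.32 (SE, padj = 0.0107, edgeR) and 1.82 ± 0.37 (SE, padj = 0.0133, edgeR). None of 8 erythroid genes met the criteria in either genotype, with 1 and 0 at an unadjusted p under 0.05. Of 6 factors of the B cell niche, none met the criteria in BMAd-*Pnpla2*+/+ mice, with 4 at an unadjusted p under 0.05. *Kitl*, a growth factor of early blood cells, met them in BMAd-*Pnpla2*-/- mice at 1.03 ± 0.24 (SE, padj = 0.0188, edgeR), and DESeq2 called none in either genotype. Its level with CR went from 83.6 ± 6.10 to 158 ± 49.2 CPM (SD, n = 4 each) in BMAd-*Pnpla2*+/+ and from 82.4 ± 21.4 to 168 ± 25.8 CPM (SD, n = 3 each) in BMAd-*Pnpla2*-/- mice. All 6 factors were above 0 in both genotypes. The part of these changes in the B-lineage result was not tested.

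The 5 genes whose pattern over the 14 samples was most like the mean z-score of the 10 were *Cplx2*, *Bcl7a*, *Spib*, *Fam129c* and *Pafah1b3*, out of 12909 candidates with a mean of at least 50 counts. Their mean absolute difference from that score was 0.12, 0.16, 0.16, 0.17 and 0.18 SD, against 0.13 for *Vpreb3* and 0.52 for *Cd79a*, which themselves enter the score. *Cplx2*, a regulator of vesicle fusion, was at 69.4 ± 30.9 CPM (SD, n = 4) fed AL and 13.8 ± 4.36 CPM (SD, n = 4) under CR in BMAd-*Pnpla2*+/+ mice. In BMAd-*Pnpla2*-/- mice it was at 70.9 ± 6.01 CPM (SD, n = 3) and 11.5 ± 1.60 CPM (SD, n = 3). *Fam129c* was at 93.3 ± 45.1 CPM (SD, n = 4) and 9.94 ± 0.460 CPM (SD, n = 4) in BMAd-*Pnpla2*+/+ mice. The 5 genes were picked for following the 10 over these same samples, so their difference between diets is not a separate result.

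Promoter sequence was examined because the 7 genes moved together. In the 250 bases before the RefSeq start (GRCm38.p6), 9 of the 10 genes were matched, *Cd79b* being the exception. The octamer ATGCAAAT, or ATTTGCAT on the other strand, was found for *Vpreb3* and *Blnk* and in 1.60% of all 32851 promoters. The E-box CAGGTG, or CACCTG, was found for *Rag1*, *Cd79a*, *Igll1*, *Vpreb1*, *Vpreb2* and *Blnk* and in 17.2% of promoters. Stretches outside annotated exons are given here with the motif in capitals, at chr10:75948225-75948292 on the plus strand for *Vpreb3*, chr2:101649632-101649697 on the minus strand for *Rag1*, chr16:16863986-16864023 on the minus strand for *Igll1* and chr16:17980315-17980368 on the plus strand for *Vpreb2*. These motifs were chosen with the results known, and a match is a run of letters and not a bound site.
Vpreb3: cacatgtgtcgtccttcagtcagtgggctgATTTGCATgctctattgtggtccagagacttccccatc
Rag1: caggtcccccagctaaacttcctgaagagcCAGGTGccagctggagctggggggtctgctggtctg
Igll1: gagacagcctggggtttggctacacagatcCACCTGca
Vpreb2: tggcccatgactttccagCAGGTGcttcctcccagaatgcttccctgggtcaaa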

How the data were processed

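Bulk RNAseq of 14 distal tibial marrow samples was analysed. The authors aligned read pairs to mm10 with STAR and deposited raw gene counts, not normalized, as a matrix of 23441 genes and as per-sample counts without strand and on each strand. Their processing notes also name FastQC 0.11.9 and DESeq2, and no version of STAR is given in the sources used here. In the matrix, 11 samples hold reverse-strand counts and 3, the BMAd-*Pnpla2*-/- CR samples, hold unstranded counts, so the unstranded count was used for all samples. Reads that map to several places are in no count, and made up 5.78 to 11.3% of pairs.

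Samples were grouped by their labelled genotype and diet. Counts were scaled by TMM and tested in edgeR 4.0.16 with limma 3.58.1 under R 4.3.3, by the quasi-likelihood test in 1 model of the 4 groups after filterByExpr, with two-sided p-values adjusted by Benjamini and Hochberg over 17494 genes. The SE of a log2 fold change is its absolute value divided by the square root of its F statistic. Intervals of log2 fold changes are 95%, from that SE and a t distribution, and both can understate the error where few counts remain. CPM are TMM-scaled. A log2 CPM used a prior count of 2. DESeq2 1.42.0, other scalings, no filter, the deposited matrix, own-strand counts, all genes of the per-sample files, only the compared groups, a replicate block and leaving out each sample were alternatives. Intervals of count ratios are exact and cover counting error only, and tables and figures were made with Python 3.11.15, pandas 2.3.3, scipy 1.17.1 and matplotlib 3.10.9.

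On simulated counts of 17187 genes with 200 changed by a log2 of 2 for CR in BMAd-*Pnpla2*+/+, edgeR found 196 (98.0%) with 6 false calls, and DESeq2 197 with 12. As a difference of CR responses, edgeR found 184 with 6 false calls, and DESeq2 191 with 27. The changed genes were drawn from those with a mean over 50 counts. The simulation therefore does not cover counts as low as those of *Rag2* and *Vpreb2* under CR.

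The 10 genes and the lists were chosen with earlier results of these data known. Named are all 10, *Pnpla2*, up to 3 genes per list with the largest change past the criteria at a mean of at least 50 counts, and the 5 most similar genes. No 2 samples of a group agreed within sampling noise, with chi-square per gene between 15.0 and 141. Nothing says that samples of a group were prepared apart beyond their separate pools of mice. Coordinates and exons are from GENCODE M21 and promoters from RefSeq.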

Additional observations from a re-analysis of the deposited data

Results flagged for a closer look

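One of 20 groups of 4 samples tested for a stray sample, over the 10 genes and both BMAd-*Pnpla2*+/+ groups, stood out by Dixon's ratio, and chance alone flags about 1 in 20. It was *Blnk* in BMAd-*Pnpla2*+/+ CR replicate 2, where the gap to the next sample was 0.891 of the group's range on the log2 scale. That sample had 48.9 CPM against 42.0 to 42.7 CPM in the other 3, a group whose SD was 3.35 CPM.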

How the results depend on the processing

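The count of the 10 genes past the criteria with CR was 7 in BMAd-*Pnpla2*+/+ mice under every alternative run, and in BMAd-*Pnpla2*-/- mice 8 in the analysis reported, 9 with DESeq2 or with only the compared groups fitted, and 7 to 9 on leaving out 1 sample. It was 0 for both genotype comparisons and for the difference of CR responses under every alternative run, leaving out a sample included, although DESeq2 gave no adjusted p for 5 of the 10 genes in the last and for *Vpreb2* between genotypes under CR, so these could not be called there. *Cd79a* met the criteria in BMAd-*Pnpla2*-/- mice with DESeq2 (-1.20), with only the compared groups (-1.20) and without BMAd-*Pnpla2*+/+ AL replicate 2 (-1.17). Same-numbered samples correlated between -0.37 and 0.33 in their deviations, over 0.1 in 7 of 19 pairs, and samples with different numbers between -0.44 and 0.36. These values cannot settle whether replicate numbers pair the samples, and the reported fit used no pairing. With a replicate block, 7 and 8 genes fell with CR, and 0 differed in the other 3 comparisons. Of 1107 alternative values of single genes, 1068 kept direction and call, counting as not called the 6 for which DESeq2 gave no adjusted p, 3 gained and 5 lost the call, and 31 changed sign, all in comparisons of genotypes or of CR responses where no gene was called. Of genotype differences fed AL, *Rag1* went to 0.14 and *Dntt* to 0.078 with the replicate block, and *Cd79b* to -0.031 with total counts and to -0.00213 with the deposited matrix. With that matrix *Vpreb1* went to -0.036 under CR and to -0.33 for the difference of responses, and with the replicate block the latter went to -0.044. Leaving out 1 sample at a time, the values fed AL ranged from -0.49 to 0.12 for *Rag1*, -0.00201 to 0.54 for *Rag2*, -0.19 to 0.12 for *Dntt*, -0.10 to 0.39 for *Igll1*, -0.10 to 0.39 for *Vpreb2*, -0.26 to 0.45 for *Vpreb3*, -0.23 to 0.38 for *Cd79a*, -0.29 to 0.25 for *Cd79b* and -0.14 to 0.26 for *Blnk*. Those of *Vpreb2* under CR ranged from -3.83 to 0.088, and those of *Vpreb1* for the difference of responses from -0.24 to 0.27. The cause was not tested.

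Counts limit *Rag2* and *Vpreb2* under CR most, at 0 to 5 per sample. With 3 or 4 pooled samples a group, the 95% interval of the difference of CR responses reached 2-fold for each of the 10 genes. The BMAd-*Pnpla2*-/- CR group cannot be told apart from its unstranded libraries. With the deposited matrix, which mixes the strand settings, 1655 genes of all tested met the criteria with CR in BMAd-*Pnpla2*-/- mice against 615 with unstranded counts, 1056 against 2 between genotypes under CR and 484 against 0 for the difference of responses.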

Other observations

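Within the BMAd-*Pnpla2*-/- CR group the members ran in different orders. *Cd79a* was at 71.8, 114 and 150 CPM, *Cd79b* at 51.6, 82.8 and 112 CPM and *Blnk* at 25.99, 32.2 and 48.3 CPM in replicates 1, 2 and 3. *Igll1* had 31, 19 and 5 counts and *Rag1* 17, 23 and 3 counts in the same samples. Replicate 3 thus had the highest receptor subunits and the fewest *Igll1* and *Rag1* counts. *Dntt* and *Vpreb1* were also lowest in replicate 3, at 57 and 7 counts, whereas *Vpreb3*, with 47, 133 and 115 counts, was lowest in replicate 1. The summed counts of the early genes were 190, 288 and 189, and the CD79 counts 2313, 3698 and 5267. The balance of replicate 3, 3.59 early counts per 100 CD79 counts, lay within the BMAd-*Pnpla2*+/+ CR range of 3.51 to 4.32. Replicates 1 and 2 lay above that range at 8.21 and 7.79. With 3 samples of few counts, no test was run.

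*Rag1* and *Rag2* lie 5752 bases apart and *Igll1* and *Vpreb1* 4417 bases apart, and the CR responses within each pair differed by 0.075 and 0.94 on the log2 scale in BMAd-*Pnpla2*+/+ and by 0.89 and 0.041 in BMAd-*Pnpla2*-/- mice. Those of *Dntt* and *Blnk*, 34739 bases apart, differed by 3.12 and 2.16. These differences within pairs were not tested.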
